A study of Bos taurus with 12 samples.

Results

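miR-132 and miR-212 are made from neighbouring hairpins of a single short transcript, and the 4 forms of these miRNAs that were counted in cow blood are described here. They were the rows of the deposited miRNA table whose name, without species prefix, arm and isoform suffix, is miR-132 or miR-212. The rule found 4 of the 1981 distinct names in the table, 2 for each miRNA. Membership rests on the names. The pair itself was selected on the contrast between the cow groups, because the 3′ form of miR-212 was among the features with the smallest p-values in it. Levels and fold changes between the groups are therefore a description and carry no test.

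The study sequenced small RNA of Chinese Holstein cows in milk, in 12 libraries. It classed cows as heat stressed or heat resistant, with 6 libraries of each. The classes came from rectal temperature and the drop in milk yield combined by principal component analysis. No cows kept without heat are named in the labels. The labels give the tissue as blood without naming a fraction, and give no age. Each library is taken as 1 cow, which the labels do not state, and the spread between libraries is the error given throughout. With every repeated name counted once, libraries held 6405040 to 9728457 counts in heat stressed cows and 3992952 to 9813801 counts in heat resistant cows.

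As background, the promoter of the miR-132 and miR-212 transcript in mice and humans carries sites for CREB, the factor that couples cyclic AMP and calcium signals to transcription, and both miRNAs are best known from neurons, where activity induces them. In human monocytes miR-132 is also induced by toll-like receptor ligands, and in human cells it lowers the co-activator p300. In mice it lowers acetylcholinesterase, the enzyme that breaks down a neurotransmitter with anti-inflammatory effects. The 3′ products of both hairpins share their seed, the stretch near the 5′ end that pairs with target mRNAs, and can therefore bind many of the same targets. In the RefSeq annotation of the cattle assembly ARS-UCD2.0, MIR132 and MIR212 lie next to each other with 0 genes between them, flanked by OVCA2 and HIC1.

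The members differed widely in abundance. Levels are given as CPM, counts scaled to a common library total after adjustment with TMM factors. The row named for cattle miR-132 averaged 129 CPM over the 12 libraries and ranked at 183 of 1981 names. The row carrying the human name miR-212-3p averaged 14.4 CPM and ranked at 387. Its suffix, R+1, marks a 3′ end longer by 1 base than the reference in the naming of the counting program. The other 2 members ranked near the middle of all names but were counted in some libraries only. The row named for cattle miR-212, with a suffix for a 3′ end shorter by 4 bases, averaged 0.787 CPM and ranked at 912. The row carrying the human name miR-132-5p, shorter by 3 bases, averaged 0.544 CPM and ranked at 1005.

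The cattle names give no arm. Because the other row of each hairpin is labelled with an arm, cattle miR-132 was taken as the 3′ form and cattle miR-212 as the 5′ form. Each arm of each miRNA was thus represented by a single row. All 12 values of each member were whole numbers, within 1e-06, although many rows of the table hold fractions.

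Both 3′ forms, which carry the shared seed, were less abundant in heat stressed cows, and miR-212 differed by more than miR-132. For miR-132, the lowest, median and highest levels were 91.2, 111 and 145 CPM in heat stressed libraries and 121, 146 and 161 CPM in heat resistant libraries. Of the heat stressed libraries, 5 of 6 lay below every heat resistant library, which held in 2.38% of all features tested, and the groups overlapped through heat stressed library 2. That library, at 144.7 CPM, lay above heat resistant libraries 4 and 6, at 120.6 and 137.7 CPM. Heat stressed cows averaged 112 ± 18.1 CPM and heat resistant cows 145 ± 15.0 CPM (SD, n = 6 each), a log2 fold change of -0.38 ± 0.14 (SE).

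For miR-212, the lowest, median and highest levels of the 3′ form were 5.38, 8.13 and 12.8 CPM in heat stressed libraries and 9.22, 22.3 and 29.4 CPM in heat resistant libraries. These rest on 38 to 110 counts per heat stressed library and 68 to 200 per heat resistant library. Again 5 of 6 heat stressed libraries lay below every heat resistant library, and heat stressed library 2, at 12.8 CPM, was the highest of its group. The heat resistant libraries stood apart from each other. Libraries 2 and 4 had 10.7 and 9.22 CPM, within the range of the heat stressed cows, while libraries 1, 3, 5 and 6 had 28.3, 29.4, 25.1 and 19.5 CPM. Heat stressed cows averaged 8.47 ± 2.46 CPM and heat resistant cows 20.4 ± 8.78 CPM (SD, n = 6 each), a log2 fold change of -1.26 ± 0.30 (SE). The coefficient of variation of miR-212 was 29.0% among heat stressed cows and 43.1% among heat resistant cows, and that of miR-132 was 16.2% among heat stressed cows and 10.3% among heat resistant cows.

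**Figure D1:**
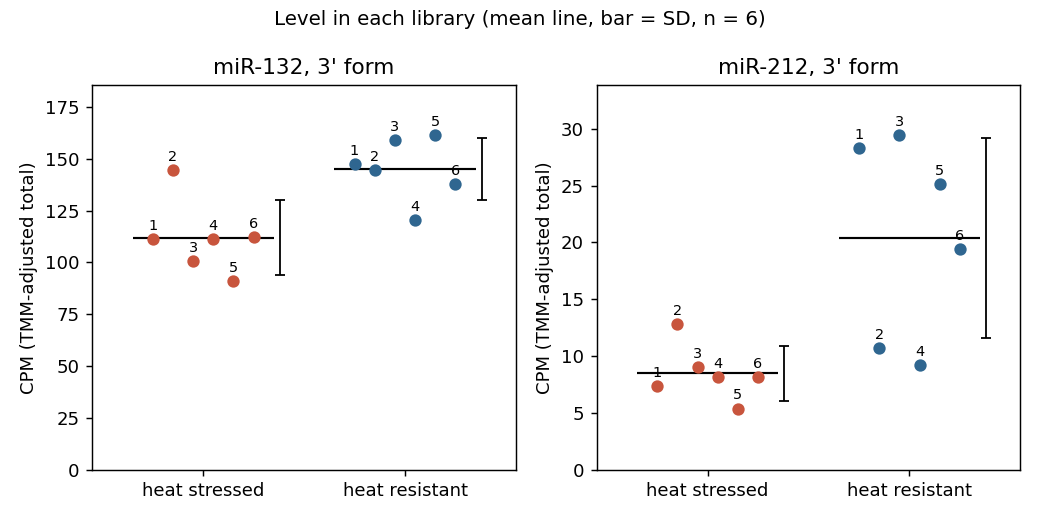
CPM of the 3′ forms of miR-132 (left) and miR-212 (right) in each library, numbered within its group, with a line at the mean and a bar for the SD (n = 6 per group). For miR-212, heat resistant libraries 2 and 4 (10.7 and 9.22 CPM) lie below heat stressed library 2 (12.8 CPM). They lie above the other heat stressed libraries, the lowest at 5.38 CPM. The other 4 heat resistant libraries lie above all heat stressed libraries.

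The quasi-likelihood F test of edgeR over all 756 features past the count filter called 0 of the 2 members tested at an adjusted p under 0.05, where it called 0% of all features. At an unadjusted p under 0.05, both 3′ forms were lower in heat stressed cows, as were 10.2% of all features. DESeq2 called 1 of the 2, the 3′ form of miR-212, as lower, where it called 3.17% of all features lower, and limma-voom called 0 of the 2, where it called 0% of all features. All 6 heat stressed libraries lay below the heat resistant median for both 3′ forms, as they did in 13.8% of all features, while the groups failed to overlap in 0.926% of all features and for neither 3′ form. Without the count filter edgeR called 1 of the 4 members, again the 3′ form of miR-212 as lower, where it called 0.253% of all features lower. Since this contrast was known when the pair was picked, nothing is read from these counts. In blood as a bulk sample, fewer cells that make these miRNAs and less of them per cell cannot be told apart.

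The call of miR-212 depended on which libraries were used. Without heat resistant library 4 edgeR called it, with a log2 fold change of -1.39 ± 0.28 (SE), where 4.12% of all features were called lower. Without heat stressed library 2 edgeR also called it, at -1.40 ± 0.32 (SE), where 0.903% were called lower. Heat resistant library 4 had the lowest miR-212 level of its group and heat stressed library 2 the highest of its own, so leaving either out widens the difference by construction. Without heat resistant library 2, the next lowest of its group, the fold change was -1.40 ± 0.30 (SE) and the call was not made in a fit that called 0% of all features. miR-132 was called in none of the 21 other fits, where its log2 fold change ran from -0.45 to -0.25.

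**Figure D2:**
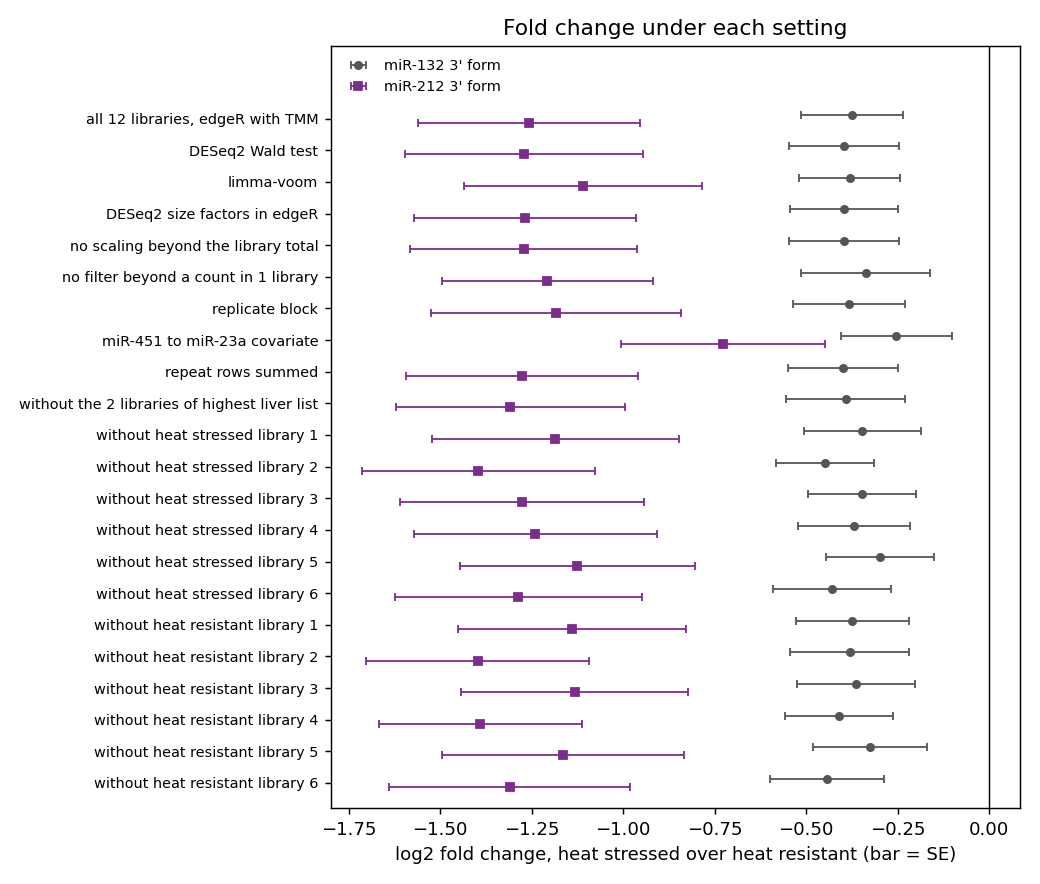
Log2 fold change of each 3′ form, heat stressed over heat resistant, with its SE, in the fit to all libraries and under each other setting. The values of miR-212 lie between -1.40 and -0.73 and those of miR-132 between -0.45 and -0.25, and the values nearest to 0 are those with the ratio of miR-451 to miR-23a as a covariate.

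The balance between the 2 miRNAs is given as a description. It contains the group difference of miR-212 for which the pair was picked, so it is no separate finding. A ratio within a library does not depend on the library total, and it compares reads, not molecules, because sequences can differ in how well they are cloned. The share of miR-212 in the counts of both 3′ forms had a lowest, median and highest value of 5.57%, 6.78% and 8.23% in heat stressed and of 6.90%, 12.9% and 16.1% in heat resistant libraries. It averaged 6.95 ± 1.06% among heat stressed cows and 11.9 ± 4.05% among heat resistant cows (SD, n = 6 each). All heat stressed libraries thus had a low share, while heat resistant cows fell on both sides. Heat resistant libraries 2 and 4 had 6.90% (95% exact binomial interval 5.39 to 8.66%) and 7.10% (5.74 to 8.67%). Libraries 1, 3, 5 and 6 had 16.1% (14.1 to 18.3%), 15.6% (13.2 to 18.4%), 13.5% (11.6 to 15.5%) and 12.4% (10.5 to 14.5%). The intervals of libraries 2 and 4 end below those of the other 4 begin, and they cover counting error only.

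On the log2 scale the ratio of miR-132 to miR-212 averaged 3.71 ± 0.22 among heat stressed cows and 2.94 ± 0.60 among heat resistant cows (SD, n = 6 each), a difference of 0.77. The difference lay between 0.65 and 0.92 when each library was left out in turn. All 6 heat stressed libraries lay above the heat resistant median, and 4 of 6 lay above every heat resistant library. How often ratios of other features separate the groups this way was not computed, so nothing is read from this order.

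**Figure D3:**
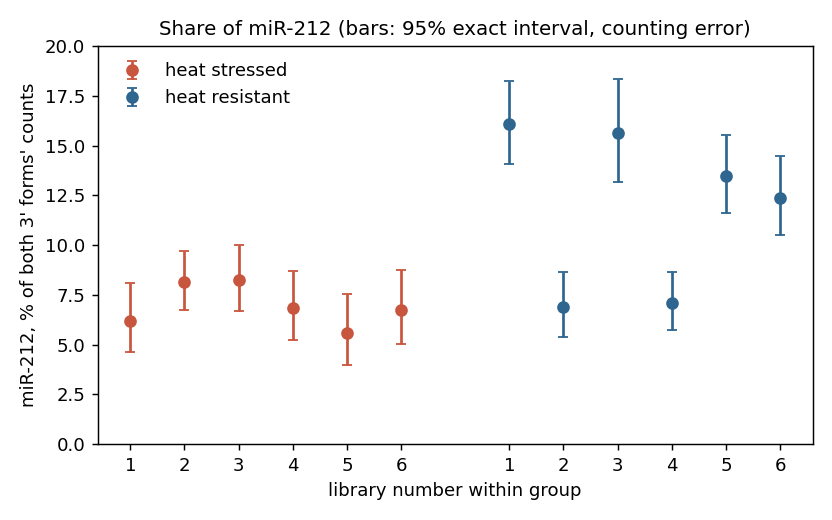
Share of miR-212 in the summed counts of both 3′ forms in each library, in percent, with 95% exact binomial intervals that cover counting error only. Heat stressed libraries lie between 5.57% and 8.23%, and heat resistant libraries 2 and 4, at 6.90% and 7.10%, lie in that range, below the other 4 at 12.4% to 16.1%.

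The levels of the 3′ forms of the pair were also compared cow by cow. Over the 12 libraries the log2 CPM of miR-132 and miR-212 had a Pearson r of 0.88 and a Spearman rho of 0.90, and with group means removed r was 0.74. The values over all 12 contain the group difference for which the pair was picked, so they are a description and no test is given. Both values of a library also share its total. Tests are given within each group, 2-sided. They were adjusted over 9 tests, which include those over all 12 libraries that are not reported. Within heat stressed cows r was 0.88 (n = 6, exact permutation p = 0.0528, adjusted 0.196) and rho 0.60 (exact permutation p = 0.242, adjusted 0.490). Within heat resistant cows r was 0.78 (n = 6, exact permutation p = 0.0653, adjusted 0.196) and rho 0.77 (exact permutation p = 0.103, adjusted 0.463). The relation passed in neither group.

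Without the 2 libraries whose miR-132 lay farthest from the median, r was 0.88 over the other libraries of both groups. Within heat stressed cows this step removed libraries 2 and 5, the highest and the lowest, and r turned to -0.78, so the relation in that group rests on those 2 libraries. Within heat resistant cows it removed libraries 4 and 5 and r was 0.51.

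**Figure D4:**
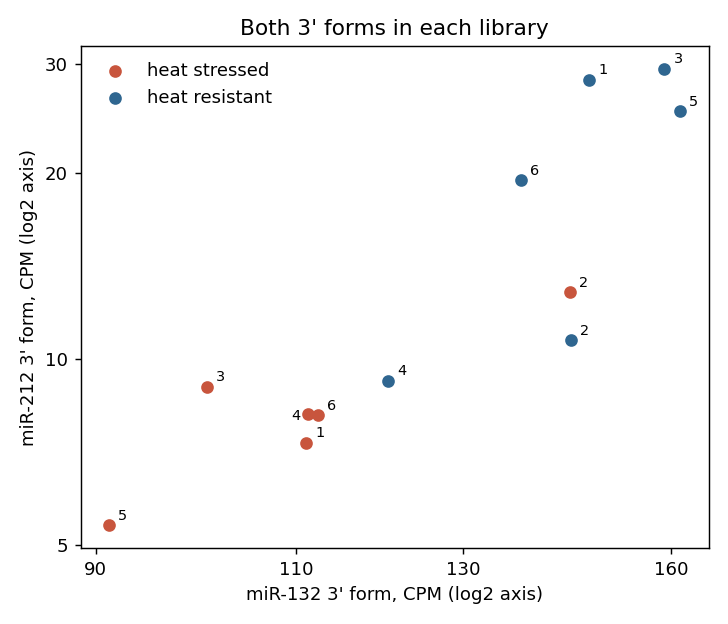
CPM of the 3′ form of miR-212 against that of miR-132 in each library, on log2 axes, with libraries numbered within their group. Heat stressed library 5 has the least of both (91.2 and 5.38 CPM), and heat resistant libraries 1, 3 and 5 have high levels of both, while heat resistant library 2 pairs 144.7 CPM of miR-132 with 10.7 CPM of miR-212.

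Among the 435 other features with a mean of at least 10 CPM that passed the count filter, the closest to each 3′ form were sought by a fixed measure. By Spearman's rho over the 12 libraries, given as a description, only miR-7857-3p (0.92) was more like miR-132 than miR-212 was. It was followed by miR-103 (0.88), known in mice for its part in insulin sensitivity, miR-181d (0.87), of a family active in T cell development, and miR-30c and miR-30f (0.86), which hold the same values in every library. For miR-212, miR-181d and miR-196b, which lies in a HOX gene cluster, were closer than miR-132 (0.91 each), followed by miR-103 (0.90), miR-330-5p (0.86) and, tied, miR-652 and miR-1260b (0.85 each). These features had lower fitted levels in heat stressed cows too, with log2 fold changes from -0.88 ± 0.24 for miR-330-5p to -0.15 ± 0.14 for miR-30c (SE), so the likeness includes the group difference. With group means removed, Pearson's r with miR-132 was 0.96 for miR-30c and 0.84 for miR-103, and r with miR-212 was 0.81 for miR-103 and 0.80 for miR-181d. Between the members themselves it was 0.74, and on this measure 10 of the 435 features were closer to miR-132 than miR-212 was, and 11 were closer to miR-212 than miR-132 was.

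The 5′ forms, the minor products of both hairpins, were counted in some cows only. For miR-132 the 5′ form had 6, 6, 0, 10, 0 and 10 counts in heat stressed libraries 1 to 6, and 14, 0, 0, 0, 0 and 0 counts in heat resistant libraries 1 to 6. It was thus above 0 in 4 of 6 heat stressed and 1 of 6 heat resistant cows. For miR-212 the 5′ form had 17, 0, 0, 10, 0 and 7 counts in heat stressed and 5, 0, 0, 15, 5 and 10 counts in heat resistant libraries, above 0 in 3 of 6 and 4 of 6 cows. Of the values above 0 in rows of whole numbers, 99.8% were 5 or more, and a listed 0 need not mean that no read was found, so no fold change is given for these forms.

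**Figure D5:**
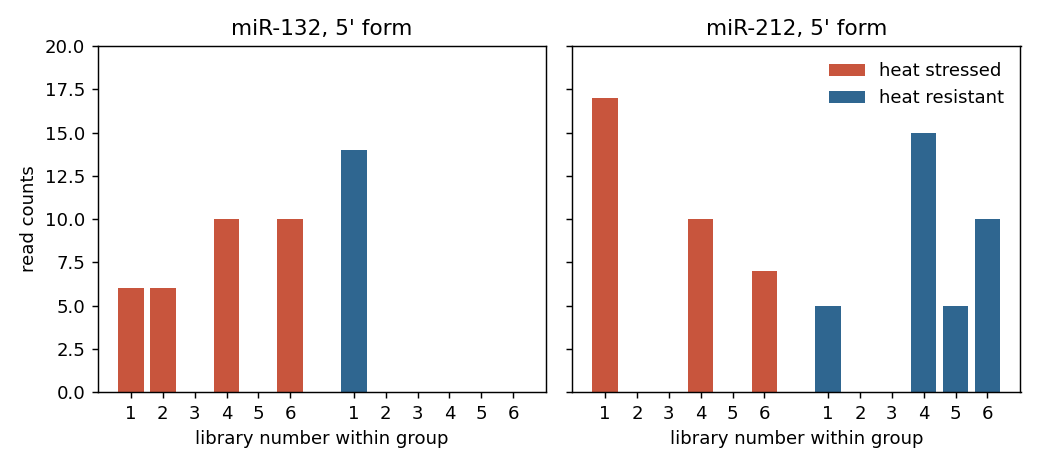
Read counts of the 5′ forms of miR-132 (left) and miR-212 (right) in each library. No library exceeds 17 counts, and libraries 3 of both groups, heat stressed library 5 and heat resistant library 2 have 0 counts of both.

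Summed over the 12 libraries, the 5′ form made up 46 of the counts of miR-132 beside 11002 of the 3′ form (0.416%), and 69 of the counts of miR-212 beside 1183 (5.51%). The 3′ form was therefore the main product of both hairpins, and the 5′ form held a larger share of miR-212 than of miR-132. For miR-132 the pooled 5′ share was 0.615% in heat stressed cows (95% exact interval 0.421 to 0.867%) and 0.239% in heat resistant cows (0.131 to 0.401%). For miR-212 it was 7.85% in heat stressed (5.50 to 10.8%) and 4.27% in heat resistant cows (2.99 to 5.89%). The 5′ counts of miR-212 were 34 in heat stressed and 35 in heat resistant cows, beside 399 and 784 of the 3′ form. Its difference in share thus follows the 3′ form, for which the pair was picked, and is no separate finding. The intervals of both miRNAs pool the cows of a group and cover counting error only. They also take each listed 0 as no reads, which need not hold. All heat resistant counts of the miR-132 form came from library 1. Neither 5′ form passed the count filter, so neither entered the test. No relation between the arms of a miRNA passed, with adjusted permutation p from 0.606 to 0.853 for r within the 2 groups. For miR-132 in heat resistant cows the test could not pass, because only library 1 had counts of the 5′ form. The other arm tests also rest in part on listed 0 values, so nothing is read from these results.

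Other miRNAs that toll-like receptors or NF-kB induce in immune cells had fitted values on both sides of 0. Of the 12 names in this activation list, all had a row, and 21 of their 27 rows were tested. edgeR called 0 of these, 8 had higher and 13 had lower fitted values in heat stressed cows, and 0 higher and 2 lower had an unadjusted p under 0.05, as had 69 higher and 77 lower of all 756 features. The median log2 fold change was -0.17, against -0.00194 over all 756 features. miR-21-5p, the most abundant of the list, stood at 0.06 ± 0.12, and miR-221, which lowers the cell cycle inhibitor CDKN1B, at -0.16 ± 0.15 (log2 fold change, SE). miR-155, the best studied of those induced in activated immune cells, averaged 532 ± 136 CPM among heat stressed cows and 516 ± 108 CPM among heat resistant cows (SD, n = 6 each) and is named here after its values were seen. Without heat resistant library 4 edgeR called 2 of the list, miR-125a as lower (log2 fold change -1.03 ± 0.31) and miR-9-5p as higher (0.79 ± 0.24, SE), in a fit that called 97 of 777 features, 65 higher and 32 lower.

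Markers of blood cell types were set beside the pair. Lymphocyte markers summed to 8205 to 15108 CPM over heat stressed libraries and 6582 to 8654 CPM in heat resistant libraries. Of their 12 tested rows 7 were higher and 5 lower, with miR-342 at 0.92 ± 0.21 and miR-150 at 0.86 ± 0.29 (log2 fold change, SE). Red cell markers summed to 26245 to 82286 CPM in heat stressed libraries and to 20217 to 97827 CPM in heat resistant ones. All 8 tested red cell rows had higher fitted values, with miR-486 at 0.64 ± 0.39 and miR-451 at 0.37 ± 0.39. Heat resistant library 4, one of those low in miR-212, had the highest red cell sum of all, while heat resistant library 2, the other, had 21316 CPM, the second lowest. With miR-451 over miR-23a, as a log2 ratio, entered as a covariate, the log2 fold change was -0.73 ± 0.28 for miR-212 and -0.25 ± 0.15 for miR-132 (SE). That ratio was chosen for red cell content, but it also follows miR-23a, a miRNA of the myeloid list with a log2 fold change of -0.75 ± 0.28 (SE), larger in size than that of miR-451. Over all 756 features, 61 had an unadjusted p under 0.05 in edgeR with the covariate and 146 without it, so its effect was not particular to the pair. The part of cell composition in the levels of the pair was not tested beyond this covariate.

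Of the 13 tested rows of myeloid markers, 8 were higher and 5 lower, with miR-142-5p at 0.84 ± 0.21 and miR-23a at -0.75 ± 0.28. The 3′ arm of miR-142 stood at 0.13 ± 0.19. The most abundant miR-223 row stood at 0.16 ± 0.17 and its 5′ arm at -0.32 ± 0.19. These further rows are named here after their values were seen. Myeloid sums were 60641 to 78527 CPM among heat stressed libraries and 50290 to 70686 CPM in heat resistant libraries. They depend heavily on miR-142-5p, which averaged 32107 CPM among heat stressed and 17958 CPM among heat resistant cows. Platelet and endothelial markers had 7 higher and 3 lower rows and sums of 15783 to 22971 CPM among heat stressed libraries and 16907 to 22363 CPM in heat resistant libraries, with both arms of miR-151 the most abundant (0.05 ± 0.10 for the 3′ and -0.11 ± 0.16 for the 5′ arm). Liver markers had 2 higher and 8 lower rows, with miR-192 at -0.02 ± 0.15 and miR-122 at -1.42 ± 0.60. They summed to 59293 to 101193 CPM in heat stressed libraries and to 51047 to 221256 CPM in heat resistant ones, highest in heat resistant libraries 1 and 2. Without these 2 libraries the log2 fold change of miR-212 was -1.31 ± 0.31 and that of miR-132 was -0.39 ± 0.16 (SE).

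Neuronal and endocrine markers bear on the tissue for which the pair is best known. Of the 11 names 9 had a row, and miR-124 and miR-137, defining miRNAs of neurons, had none. Of 13 tested rows 6 were higher and 7 lower, with miR-375, of endocrine and epithelial cells, at -0.24 ± 0.22 and miR-128 at 0.01 ± 0.13 (log2 fold change, SE). The list summed to 5579 to 7469 CPM among heat stressed libraries and 5131 to 9096 CPM in heat resistant libraries. edgeR called 0 rows in each of these marker lists. At an unadjusted p under 0.05, reached by 69 higher and 77 lower of all 756 features, there were 7 higher lymphocyte rows, 2 higher and 2 lower myeloid rows, 1 lower liver row, 1 lower neuronal or endocrine row, and 0 rows of the red cell and of the platelet and endothelial lists.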

How the data were processed

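Small RNA from cow blood was sequenced in 12 libraries. Per the labels' protocols, total RNA came from a Trizol extraction, library construction used the TruSeq small RNA kit, and ACGT101-miR filtered the reads. The aligner, miRBase release and genome build were not given in the sources used here. That text speaks of fewer libraries than the series holds, and all 12 were used. The deposited raw columns hold expected counts, and the deposited normalized counts (a signal), the raw value times 1 constant per library, served only as an alternative. Repeat rows with the same name and values were counted once, leaving 1981 of 2183 rows.

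The counts, rounded to whole numbers, were fitted by edgeR 4.0.16 under R 4.3.3 (filterByExpr with a minimum count of 10, TMM, quasi-likelihood F test with robust=TRUE), with Benjamini-Hochberg adjustment over 756 features at 0.05, 2-sided. DESeq2 1.42.0 and limma 3.58.1 (voom) were alternatives. SE was derived from the log2 fold change and the F statistic. Log2 CPM for ratios and correlations used a prior count of 2. Correlations were tested by all 720 orders within a group; the planned permutation over 12 libraries is not reported, as it takes in the group difference. The fit was checked on simulated data. Named features are all members, the 5 most alike to each 3′ form by rho (ties included), and the 2 most abundant tested rows of each list. miR-155 and the further myeloid rows were named after their values were seen. The members, lists and tests were chosen with earlier results of these data known. The labels do not say that libraries come from separate cows, so p-values measure the spread between libraries. No sequence is printed.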

Additional observations from a re-analysis of the deposited data

Results flagged for a closer look

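In heat resistant library 1 the 5′ form of miR-132 stood apart from the rest of its group. It had 1.98 CPM, from 14 counts, while the other 5 heat resistant libraries were listed at 0. For the same reason the log2 ratio of the 3′ to the 5′ form of miR-132 was 6.03 in that library, against 8.78 to 9.20 in the other 5. Both rest on the same 14 counts. They are 2 of 14 groups of values examined for a library far from the others. The usual chance rate of about 1 in 20 does not apply to these 2. With the other 5 libraries listed at 0, the gap in CPM is fixed, and their ratios depend on the prior count.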

How the results depend on the processing

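edgeR called 0 of 756 features in all libraries, against 146 at an unadjusted p under 0.05. DESeq2 called 54, edgeR without the count filter 11, and edgeR with repeat rows summed 13. Leaving out a library gave 0 to 97 calls, with 97 without heat resistant library 4, 29 without heat stressed library 2 and 2 without heat resistant library 5. Of the members, 1 was called (the 3′ form of miR-212) by DESeq2 and 1 without the count filter, and 0 to 1 when a library was left out. The activation list had 0 to 2 calls. The replicate block, with the library number as a block, gave 8 calls and 0 members, with log2 fold changes of -1.18 ± 0.34 for miR-212 and -0.38 ± 0.15 for miR-132 (SE). The numbers are not a pairing by the labels: same-numbered libraries deviated with r from -0.05 to 0.28, over 0.1 in 2 of 6 pairs, and not every library was closest to its own number. The fold changes of both 3′ forms kept their direction in all 21 other fits, with -1.40 to -1.12 for miR-212 and -0.45 to -0.30 for miR-132 when a library was left out. Leaving out the libraries with the most liver miRNA was chosen after seeing the data.

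Correlations of the arms changed sign. With library totals only, r between the arms of miR-132 in heat resistant cows was -0.22. In that group the 5′ form had counts in library 1 only, so r rests on that library and cannot be formed without it. Without the 2 farthest libraries r was -0.78 for the 3′ forms in heat stressed cows and 0.11 for the arms of miR-212 over all libraries. When a library was left out, r for the arms of miR-132 ran from -0.13 to 0.23 in heat resistant cows and from -0.27 to 0.023 over all. For the arms of miR-212 it ran from -0.82 to 0.27 in heat stressed cows, from -0.67 to 0.30 in heat resistant cows and from -0.25 to 0.13 over all. The cause was not tested. The arm ratios also depend on the prior count, with a group difference for miR-132 of -1.42 at a prior of 2 and -2.28 at 0.5. With cattle names only, ratios of miR-132 to miR-212 and of arms could not be formed. With at most 17 counts in a library, depth limits what can be said of the 5′ forms.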
